A study of Mus musculus with 12 samples.

Results

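A set of 10 genes that carry a signal from receptors on the cell surface to calcium release inside the cell were examined in mouse hearts. They were chosen by name and role, with earlier results of these data known. The set holds the receptor genes Ednra, Agtr1a, Adra1a and Adra1b, the G-protein genes Gnaq and Gna11, the phospholipase gene Plce1, and the IP3 receptor genes Itpr1, Itpr2 and Itpr3. All 10 were present among the 13552 genes of the deposited table. The unit of the table is not named by its labels or header and was taken from its values as RPKM (reads divided by exon length in kilobases and by the library's total), which holds for every level given. All 10 also reached 1 RPKM in at least 3 mice, which 11240 genes did.

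When a hormone such as endothelin, angiotensin II or noradrenaline binds a Gq-coupled receptor, the G-protein alpha subunit activates a phospholipase C, which splits a membrane lipid into diacylglycerol and inositol trisphosphate (IP3). IP3 opens IP3 receptors, calcium channels of the endoplasmic reticulum and nuclear envelope. In the heart this pathway is known for its part in hypertrophic growth, and IP3 receptors are bound by proteins of the Bcl-2 family, among them Bcl-xL.

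Hearts were collected 9 h after surgery from 12 male C57BL/6J mice, operated at 8 to 10 weeks of age, in 4 groups of 3. Mice of the wild type (WT), and mice with the S14A allele of Bcl-xL knocked in (KI), each underwent either sham surgery or transverse aortic constriction (TAC), a band around the aorta that raises the pressure the left ventricle must overcome. The KI allele replaces serine 14 of Bcl-xL, the product of Bcl2l1, by alanine in every cell of the body. That KI mice were homozygous is a general statement of the study and not in the labels of these samples. KI mice were bred in the study, from a line whose selection cassette had been removed with CMV-Cre, whereas WT mice were purchased, so genotype and source of the mice cannot be told apart. The mice keep the numbers in their labels, which are 1, 2 and 3 for both sham groups, 7, 9 and 10 for WT TAC, and 5, 6 and 7 for KI TAC.

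RNA of the whole heart was measured, so that fewer cells of a type and less RNA per cell cannot be told apart. Libraries held between 23650191 and 32455167 reads on genes, and a member was represented by 506 to 7925 reads in a mouse. The 3 KI TAC libraries (30298177 to 31676889 reads) were all deeper than the 3 WT TAC libraries (25715285 to 29608542). All 6 cardiomyocyte markers were present, with a summed level of 11409 to 21785 RPKM over the 12 hearts. Of these Myh6 was lower with TAC in WT hearts (log2 fold change -1.15) and Pln with TAC in KI hearts (-0.93), whereas Tnni3 was higher in KI than in WT hearts after TAC (0.95). The 6 macrophage markers summed to 82.5 to 135 RPKM in WT sham, 150 to 233 in WT TAC, 88.9 to 113 in KI sham and 104 to 132 in KI TAC hearts. Adgre1 (0.83), Cd68 (1.22) and Lyz2 (0.99) rose with TAC in WT hearts, Csf1r fell with TAC in KI hearts (-0.53), and Adgre1 (-1.15) and Csf1r (-0.91) were lower in KI hearts after TAC. Without a call, Mrc1 (0.84), Cd68 (0.65), C1qa (0.44) and Lyz2 (0.09) were higher with TAC in KI hearts, and Adgre1 (-0.50) was lower. Between the TAC groups Mrc1 (0.11) and C1qa (0.08) were higher, and Cd68 (-0.55) and Lyz2 (-0.84) lower, in KI hearts, again without a call. The 6 fibroblast markers summed to 113 to 171, 134 to 610, 135 to 221 and 92.2 to 168 RPKM in the same order, and Lum fell with TAC in KI hearts (-1.14). For neutrophils 3 of 5 markers were in the table, and their sum was 0.395 to 1.27 RPKM in sham hearts, 3.69 to 9.87 in WT TAC and 4.18 to 20.3 in KI TAC hearts. S100a9 (1.58) and Csf3r (0.86) rose with TAC in WT hearts, and S100a9 (2.77), S100a8 (1.91) and Csf3r (0.63) in KI hearts, but all 3 passed the filter on low values through TAC hearts alone. The 6 endothelial markers summed to 237 to 332 RPKM over all hearts, and none was called. Of 7 markers of smooth muscle cells and pericytes (159 to 267 RPKM), Cspg4 rose with TAC in WT hearts (0.90) and was lower in KI hearts after TAC (-0.80), and Abcc9 was lower with TAC in WT (-0.83) and KI hearts (-0.89). For neurons and Schwann cells 2 of 5 markers were matched, and the 1 tested, Sox10, was not called. The part of these cell types in the results was not tested. Bcl2l1 ranged from 6.59 to 19.1 RPKM in the WT TAC and sham hearts and reached 24.5, 35.8 and 37.0 in the KI TAC hearts; RPKM does not read codon 14, so it does not check the genotype labels.

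In KI hearts TAC lowered 4 of the 10 genes, namely Adra1b, Gna11, Agtr1a and Itpr1, to between 0.525 and 0.585 of the mean level in KI sham hearts, where 23.3% of all genes tested passed and 14.7% were lower. With 1 KI mouse left out, 1 to 5 of the 10 passed, and Itpr1 missed the threshold after median-ratio scaling. In WT hearts none of the 10 passed the test, which 11.6% of all genes did, and Adra1a, at 0.417 of its sham level, came closest. After TAC, Itpr1 and Plce1 were lower in KI than in WT hearts, at 0.527 and 0.536 of the WT mean, where 11.0% of all genes passed and 8.13% were lower, but neither of these calls held after quantile normalization or median-ratio scaling of the libraries. Sham-operated KI and WT hearts did not differ in any of the 10 beyond the test's threshold, which 0.0178% of all genes passed. The difference between the responses of the genotypes passed for none of the 10 and for 0% of all genes.

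**Figure D1:**
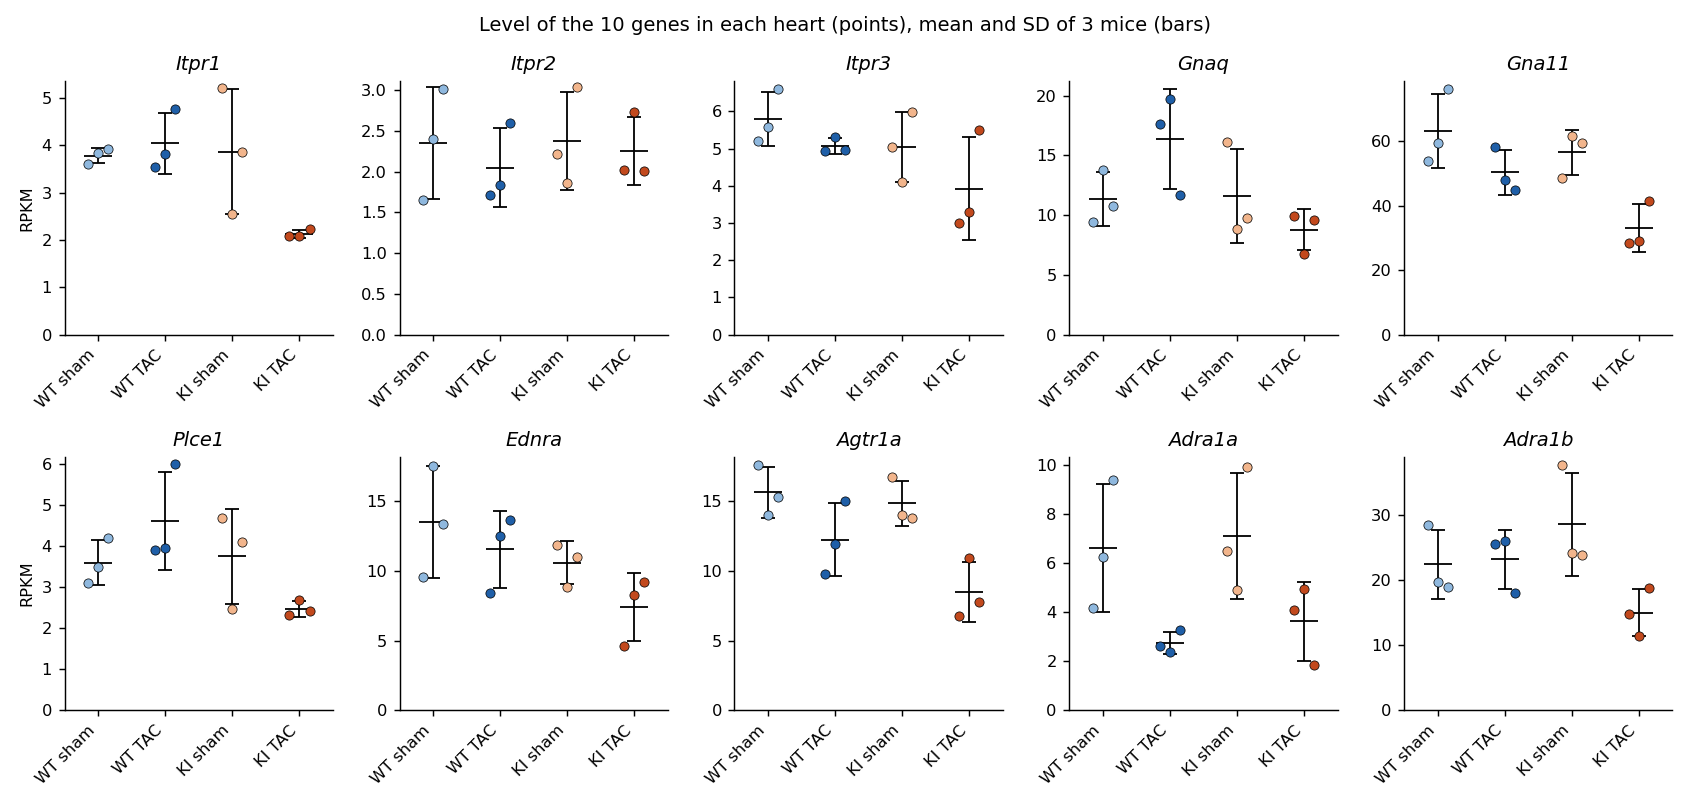
Level of each gene in RPKM on the vertical axis of each panel, by group, with 1 point for each heart and a bar for the mean and SD of 3 mice. The 3 KI TAC hearts lie between 2.07 and 2.23 RPKM for Itpr1, below every other heart, and WT TAC hearts lie between 2.38 and 3.26 RPKM for Adra1a, below every sham heart.

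The α1B-adrenergic receptor, encoded by Adra1b (chromosome 11, 43774606 to 43901210, minus strand, in GRCm38 with GENCODE M21), responds to noradrenaline and was the most abundant of the 4 receptor transcripts in every group. Its level was 28.5, 19.7 and 18.9 RPKM in WT sham mice 1, 2 and 3 and 25.5, 25.9 and 18.0 RPKM in WT TAC mice 7, 9 and 10. In KI sham mice 1, 2 and 3 it was 37.6, 24.1 and 23.8 RPKM, and in KI TAC mice 5, 6 and 7 it was 14.8, 11.5 and 18.7 RPKM. All 3 KI TAC hearts were below all 3 KI sham hearts, whereas KI sham mouse 1 stood above every other heart. Adra1b fell by 0.88 on the log2 scale in KI TAC against KI sham hearts (SE 0.24, adjusted p = 0.020, limma). It lost this call without KI sham mouse 1, with a log2 fold change of -0.67, and without KI TAC mouse 6, with -0.71. In WT hearts the same comparison gave 0.05 (adjusted p = 0.916), and the groups overlapped.

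Adra1a (chromosome 14, 66635251 to 66771168, plus strand) encodes the α1A-adrenergic receptor, the other α1 subtype of heart muscle cells. It was 4.19, 6.28 and 9.40 RPKM in WT sham, 2.64, 2.38 and 3.26 in WT TAC, 6.50, 4.91 and 9.95 in KI sham, and 4.11, 4.94 and 1.84 in KI TAC mice, each in the order of the mouse numbers. Of all 10 genes it varied most, its highest heart holding 5.41 times its lowest. Every WT TAC heart was below every WT sham heart, while KI TAC mouse 6 stood just above KI sham mouse 2. The log2 fold change was -0.97 in WT (SE 0.30, adjusted p = 0.0546) and -0.83 in KI hearts (SE 0.30, adjusted p = 0.0630), and the interval of the interaction ran from -0.79 to 1.06. Adra1a passed the test in WT hearts without WT sham mouse 1 (-1.22), in a fit of the WT groups alone (adjusted p = 0.0394), and with medians of exon length classes removed (adjusted p = 0.0378). In KI hearts it passed without KI sham mouse 2 (-1.04) and without KI TAC mouse 6 (-1.05). With another mouse left out the log2 fold change was as small as -0.72 in WT and -0.51 in KI hearts.

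Agtr1a (chromosome 13, 30336441 to 30382867, plus strand) encodes the angiotensin II receptor type 1a, the receptor through which angiotensin II acts on heart and vessels. In sham hearts it was 17.6, 14.0 and 15.3 RPKM in WT and 16.7, 14.0 and 13.8 RPKM in KI mice. After TAC it was 9.80, 11.9 and 15.0 RPKM in WT mice 7, 9 and 10 and 6.73, 10.9 and 7.80 RPKM in KI mice 5, 6 and 7. The KI groups did not overlap, while WT TAC mouse 10 lay inside the range of the WT sham hearts. Agtr1a fell by 0.76 on the log2 scale in KI TAC against KI sham hearts (SE 0.20, adjusted p = 0.0152), and it lost the call without KI sham mouse 1 (-0.68) and without KI TAC mouse 5 (-0.63). In WT hearts the difference was -0.34 (adjusted p = 0.281).

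Ednra (chromosome 8, 77663031 to 77724464, minus strand) encodes the endothelin receptor type A. Its level was 9.53, 17.5 and 13.4 RPKM in WT sham, 8.42, 12.5 and 13.7 in WT TAC, 11.9, 8.86 and 11.0 in KI sham, and 4.60, 8.29 and 9.23 in KI TAC mice. The groups overlapped in every comparison, and KI TAC mouse 5 was the lowest heart. The log2 fold change with TAC was -0.20 in WT (adjusted p = 0.665) and -0.50 in KI hearts (95% interval -1.07 to 0.06, adjusted p = 0.182), and -0.60 in KI TAC against WT TAC hearts (adjusted p = 0.143). With 1 mouse left out, the KI value ran from -0.67 to -0.24 and that between the TAC groups from -0.80 to -0.34.

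Gna11 and Gnaq encode Gα11 and Gαq, closely related alpha subunits that couple all 4 of these receptors to phospholipase C. Gna11 (chromosome 10, 81528724 to 81545190, minus strand) was the most abundant of the 10 genes in each of the 4 groups, with no overlap with the next gene. It was 54.0, 59.5 and 76.2 RPKM in WT sham, 58.4, 47.9 and 44.8 in WT TAC, 48.6, 61.6 and 59.6 in KI sham, and 28.6, 29.2 and 41.5 in KI TAC mice. All 3 KI TAC hearts were below each of the other 9. Gna11 fell by 0.77 on the log2 scale in KI TAC against KI sham hearts (SE 0.21, adjusted p = 0.0169) and differed by -0.60 between KI TAC and WT TAC hearts (SE 0.21, adjusted p = 0.0728). Without KI sham mouse 2 or 3, or KI TAC mouse 5 or 6, the first of these lost its call, with log2 fold changes of -0.71, -0.73, -0.68 and -0.69. Without KI TAC mouse 7 the second passed the test (-0.77).

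Gnaq (chromosome 19, 16132831 to 16387463, plus strand) was 9.40, 13.8 and 10.8 RPKM in WT sham, 17.6, 19.7 and 11.7 in WT TAC, 16.1, 8.83 and 9.79 in KI sham, and 9.92, 6.78 and 9.59 in KI TAC mice. The 3 KI TAC hearts were below the 3 WT TAC hearts, and KI sham mouse 1 lay within the range of the WT TAC hearts. With TAC in WT hearts it differed by 0.48 on the log2 scale (SE 0.25, adjusted p = 0.228), with TAC in KI hearts by -0.34 (adjusted p = 0.349), and between KI TAC and WT TAC hearts by -0.82 (SE 0.25, adjusted p = 0.0508). The last of these passed the test with a pseudocount of 0.1 (adjusted p = 0.0498) and without WT TAC mouse 10 (-1.03). With 1 mouse left out, the difference with TAC ran from -0.49 to -0.09 in KI and from 0.34 to 0.69 in WT hearts.

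The 250 bases before the transcription start, from the RefSeq promoter table (GRCm38.p6), are shown for this pair of related genes, which share GC boxes, and for Adra1b, which holds none. Each runs 5′ to 3′ on the strand of its gene, and capitals mark matches to the motifs searched. The windows are chr10:81545163-81545412 on the minus strand for Gna11, chr19:16132434-16132683 on the plus strand for Gnaq and chr11:43901238-43901487 on the minus strand for Adra1b. RefSeq gave 2 windows for Adra1b, and the one nearest to the start in GENCODE was taken. The last 28 bases of the Gna11 window lie in its first exon by GENCODE.
Gna11: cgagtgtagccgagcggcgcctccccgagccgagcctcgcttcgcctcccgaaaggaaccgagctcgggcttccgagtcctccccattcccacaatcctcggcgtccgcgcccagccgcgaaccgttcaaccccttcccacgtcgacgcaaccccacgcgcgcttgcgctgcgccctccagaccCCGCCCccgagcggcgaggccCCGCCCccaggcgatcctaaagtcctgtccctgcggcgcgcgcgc
Gnaq: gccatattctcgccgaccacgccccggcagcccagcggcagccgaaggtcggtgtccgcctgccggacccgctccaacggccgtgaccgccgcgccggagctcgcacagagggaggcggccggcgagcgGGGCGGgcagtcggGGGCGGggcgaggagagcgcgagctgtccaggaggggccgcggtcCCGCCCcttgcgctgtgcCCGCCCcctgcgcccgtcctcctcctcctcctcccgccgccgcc
Adra1b: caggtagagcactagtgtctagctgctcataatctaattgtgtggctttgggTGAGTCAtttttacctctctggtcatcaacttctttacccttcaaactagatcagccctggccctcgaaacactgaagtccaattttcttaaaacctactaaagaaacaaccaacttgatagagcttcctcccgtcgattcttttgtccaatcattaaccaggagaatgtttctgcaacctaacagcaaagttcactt
The Gna11 window held 2 GC boxes (GGGCGG, or CCGCCC on the other strand) and the Gnaq window 4, at 73.2% and 79.2% GC, against a median of 52.4% over all windows of the table. Adra1b, at 41.6% GC, held 1 AP-1 site (TGANTCA). Of 32851 windows of this length, 32.7% held a GC box and 6.75% an AP-1 site. Windows were found for 7 of the 10 members, and those of Itpr2 and Itpr3 held 4 and 1 GC boxes. Ednra and Plce1 held none, with 1 and 2 matches to GGAAA, the core of the NFAT site, which 55.6% of windows hold; the Plce1 window starts inside the longer gene that GENCODE annotates. Itpr3 also held 1 E-box (CACGTG, in 6.02% of windows). TATAAA, TGACGTCA and the glucocorticoid response element, searched on both strands like the others, were in none of the 7 windows and in 12.4%, 1.55% and 0.387% of all windows. No motif contains another.

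Plce1 (chromosome 19, 38481109 to 38785030, plus strand) encodes phospholipase Cε, a phospholipase C that small GTPases such as Ras as well as G-protein subunits can activate. It was 3.10, 3.48 and 4.18 RPKM in WT sham, 3.89, 3.95 and 5.98 in WT TAC, 4.69, 2.45 and 4.10 in KI sham, and 2.31, 2.68 and 2.41 in KI TAC mice. Every KI TAC heart was below every WT TAC heart, and WT TAC mouse 10 was the highest of all 12. Between the TAC groups Plce1 was lower in KI hearts (log2 fold change -0.67, SE 0.20, adjusted p = 0.0465). This call was lost when any TAC mouse other than WT TAC mouse 9 was left out (-0.76 to -0.51), without the filter on low values (adjusted p = 0.0530), and under the alternative scalings. The differences with TAC were 0.28 in WT (adjusted p = 0.391) and -0.42 in KI hearts (adjusted p = 0.142), and the latter passed the test without KI sham mouse 2 (-0.64). Over all fits with 1 mouse left out they ran from 0.11 to 0.37 in WT and from -0.64 to -0.28 in KI hearts.

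Itpr1 (chromosome 6, 108213096 to 108551109, plus strand), Itpr2 (chromosome 6, 146108299 to 146502223, minus strand) and Itpr3 (chromosome 17, 27057304 to 27122223, plus strand) encode the 3 IP3 receptor types, of which type 2 is known as the main one of heart muscle cells. In these whole hearts Itpr2 had the lowest mean of the 3 in WT sham, WT TAC and KI sham hearts, and Itpr3 had the highest mean in all 4 groups. Itpr1 was 3.61, 3.83 and 3.92 RPKM in WT sham, 3.55, 3.82 and 4.77 in WT TAC, 5.21, 2.55 and 3.85 in KI sham, and 2.09, 2.07 and 2.23 in KI TAC mice. The KI TAC hearts were the 3 lowest of the 12, and they lay closer together (SD 0.0846 RPKM) than the KI sham hearts (SD 1.33 RPKM). Itpr1 fell by 0.60 on the log2 scale with TAC in KI hearts (SE 0.18, adjusted p = 0.0310) and was at -0.68 in KI TAC against WT TAC hearts (SE 0.18, adjusted p = 0.0331). With TAC in WT hearts it differed by 0.07 (95% interval -0.33 to 0.46, adjusted p = 0.841). The first call was lost without KI sham mouse 1 (-0.41) or 3 (-0.58), without KI TAC mouse 5 (-0.59) or 6 (-0.59), and in a fit of the KI groups alone (adjusted p = 0.0611). The second was lost without WT TAC mouse 7 (-0.75) or 10 (-0.58) and without KI TAC mouse 5 (-0.67) or 6 (-0.67).

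Itpr2 was 1.65, 2.40 and 3.01 RPKM in WT sham, 1.71, 1.84 and 2.60 in WT TAC, 2.22, 1.86 and 3.04 in KI sham, and 2.02, 2.73 and 2.01 in KI TAC mice. The 4 groups overlapped throughout. Its log2 fold changes were -0.13 with TAC in WT, -0.04 with TAC in KI and 0.10 in KI TAC against WT TAC hearts, with 95% intervals of -0.53 to 0.28, -0.45 to 0.36 and -0.31 to 0.50. The sign of the KI value turned under quantile normalization (0.06) and median-ratio scaling (0.05). Itpr3 was 5.19, 5.58 and 6.61 RPKM in WT sham, 4.93, 5.30 and 4.95 in WT TAC, 5.04, 4.09 and 5.99 in KI sham, and 2.99, 3.28 and 5.50 in KI TAC mice. KI TAC mice 5 and 6 were the lowest hearts, and mouse 7 lay among the others. Its log2 fold change was -0.32 with TAC in KI (adjusted p = 0.251) and -0.33 in KI TAC against WT TAC hearts (adjusted p = 0.256). Both passed the test without KI TAC mouse 7, at -0.54 and -0.55. With another mouse left out they were as small as -0.18 and -0.20, and with medians of exon length classes removed they were -0.19 and -0.10.

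The make-up of the receptor family within a heart does not change when a library is scaled by a single factor; these shares were chosen after the values had been seen and carry no test. Itpr1 made up 28.9 to 34.5% of the summed IP3 receptor RPKM in WT sham, 34.8 to 38.7% in WT TAC, 29.9 to 41.8% in KI sham and 22.9 to 29.5% in KI TAC hearts. The KI TAC range lay below those of the WT TAC and KI sham hearts and overlapped that of WT sham. Itpr2 took 16.8 to 21.1% in WT TAC and 20.7 to 33.8% in KI TAC hearts, which overlapped. The sum of the 3 genes was 10.2 to 12.3 RPKM in WT TAC and 7.10 to 9.74 RPKM in KI TAC hearts. For the alpha subunits, Gna11 stood at 4.31 to 7.08 times Gnaq in WT sham and 2.43 to 3.83 times in WT TAC hearts, without overlap, and at 3.01 to 6.97 times in KI sham and 2.88 to 4.33 times in KI TAC hearts.

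**Figure D2:**
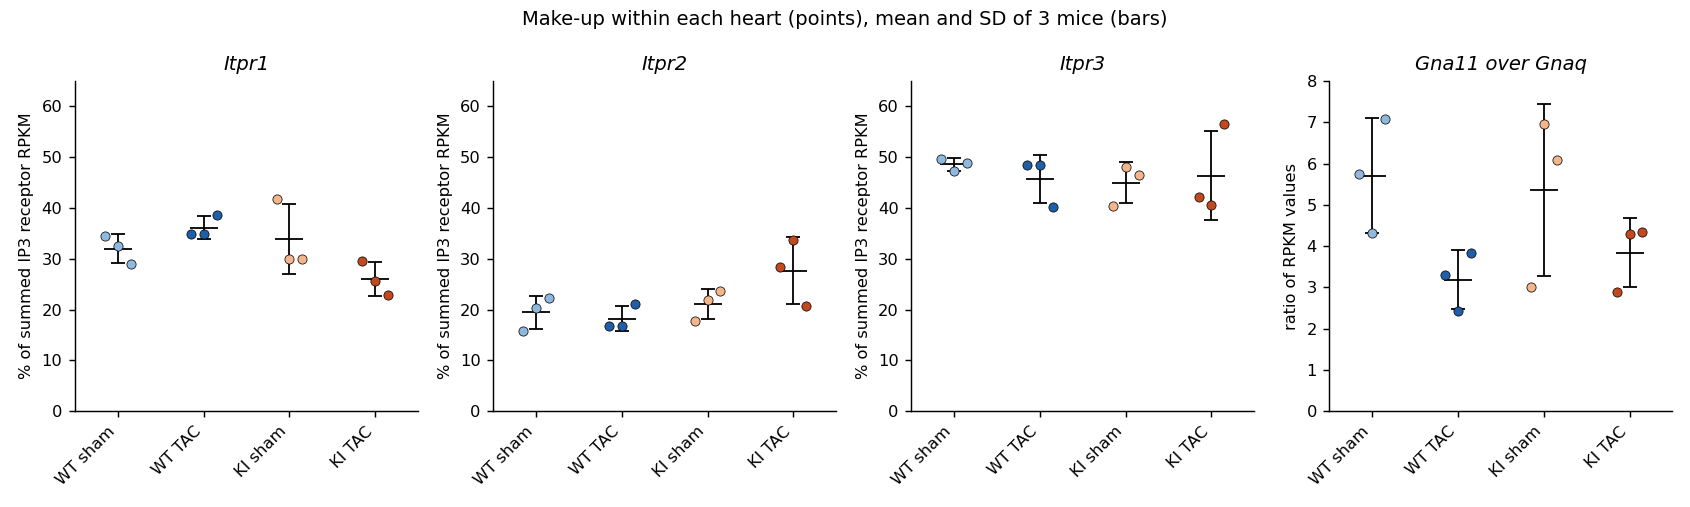
Share of Itpr1, Itpr2 and Itpr3 in the summed RPKM of the 3 genes (percent) and the ratio of Gna11 to Gnaq RPKM, with 1 point for each heart and a bar for the mean and SD of 3 mice. The share of Itpr1 in KI TAC hearts, 22.9 to 29.5%, lies below its share in KI sham and WT TAC hearts.

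In WT sham hearts the mean level ran from Gna11 (63.2 ± 11.6 RPKM, SD, n = 3) over Adra1b (22.3 ± 5.31), Agtr1a (15.6 ± 1.83), Ednra (13.5 ± 4.01), Gnaq (11.3 ± 2.26), Adra1a (6.62 ± 2.62), Itpr3 (5.80 ± 0.732), Itpr1 (3.79 ± 0.162) and Plce1 (3.59 ± 0.545) to Itpr2 (2.35 ± 0.685). Neighbours in this order overlapped between Agtr1a and Itpr3 and between Itpr1 and Plce1. In KI TAC hearts Itpr1 (2.13 ± 0.0846) stood last and Adra1a (3.63 ± 1.61) below Itpr3 (3.92 ± 1.37), but each overlapped its neighbours. Gna11 (33.1 ± 7.32) and Adra1b (15.0 ± 3.62) kept the first and second places there without overlap.

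By limma, 0 of the 10 genes passed an adjusted p of 0.05 in WT TAC against WT sham hearts, where 11.6% of the 11240 genes tested did, and 1, Adra1a, had an unadjusted p under 0.05, as did 27.9% of all genes. Adra1a was also the one gene of the 10 without overlap between mice, which 35.1% of all genes lacked. The median log2 fold change was -0.14 for the 10 and 0.04 for all genes. With TAC in KI hearts 4 of 10 passed, all lower, where 23.3% of all genes passed and 14.7% were lower. All 10 had a negative log2 fold change, with a median of -0.55 against -0.10 for all genes, and 9 of 10 lay below the latter. After quantile normalization or median-ratio scaling 9 of 10 were negative. The share of all genes below 0 was not counted. No overlap between mice was seen for 4 of 10, where 38.3% of all genes had none, and 5 of 10 had an unadjusted p under 0.05, where 36.8% of all genes did. Between KI TAC and WT TAC hearts 2 of 10 passed, both lower, where 11.0% of all genes passed and 8.13% were lower. The median there was -0.60 against -0.12 for all genes, and 4 had no overlap, where 29.5% of all genes had none. Negative log2 fold changes were seen for 8 of 10, and the share of all genes below 0 was not counted here either. An unadjusted p under 0.05 was found for 7 of the 10 and for 30.3% of all genes. Those that did not pass ran from -0.82 (Gnaq) to 0.24 (Adra1a). Both comparisons use the same KI TAC hearts. In KI sham against WT sham hearts 0 of 10 passed, none had an unadjusted p under 0.05, and all 10 overlapped, with log2 fold changes from -0.30 (Ednra) to 0.33 (Adra1b). Of all genes 0.0178% passed, 0.329% had an unadjusted p under 0.05, and 3.27% did not overlap.

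**Figure D3:**
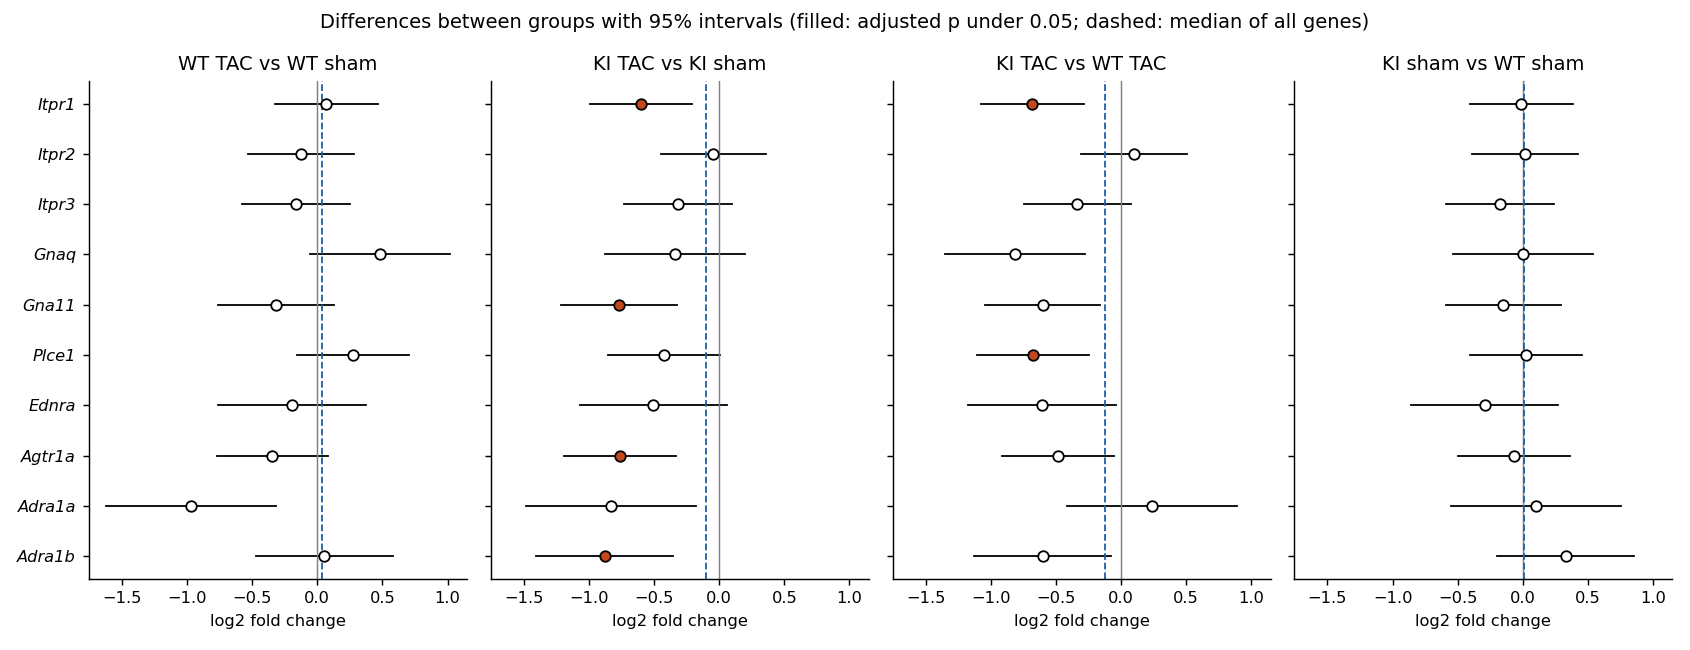
Log2 fold change with its 95% interval for each gene in 4 comparisons, filled where the adjusted p is under 0.05, with a dashed line at the median of all genes tested. In KI TAC against KI sham hearts all 10 points lie below 0 and 4 are filled, while in KI sham against WT sham hearts none is filled.

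With 3 mice against 3, the smallest p of a two-sided exact permutation test is 0.1, which each pair of groups without overlap reached, so that this test cannot pass 0.05. The interaction, which asks whether TAC acted differently in the 2 genotypes, was passed by 0 of 10 and by 0% of all genes in limma. At an unadjusted p under 0.05 were 4 of 10 and 14.8% of all genes. Those 4 were Adra1b (-0.93, SE 0.35, adjusted p = 0.248), Gnaq (-0.82, SE 0.35, adjusted p = 0.309), Plce1 (-0.70, SE 0.28, adjusted p = 0.279) and Itpr1 (-0.67, SE 0.26, adjusted p = 0.260). The negative sign means a lower response in KI than in WT hearts. For the other 6 the interaction ran from -0.45 (Gna11) to 0.14 (Adra1a).

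The deposited values were scaled by the total of each library alone, and their median ratio to the mean library was 0.829, 0.929 and 1.04 in KI TAC mice 5, 6 and 7, against 0.961 to 1.12 in WT TAC hearts. Relative to the median of all genes, KI TAC against WT TAC hearts were at -0.69 for Gnaq, -0.56 for Itpr1, -0.55 for Plce1 and -0.48 for each of Gna11, Ednra and Adra1b. After median-ratio scaling, 3 of 10 passed in KI TAC against KI sham hearts, Itpr1 missing the threshold at -0.50 (adjusted p = 0.0568), and 0 of 10 in KI TAC against WT TAC hearts, with Itpr1 at -0.56 (adjusted p = 0.0587) and Plce1 at -0.55 (adjusted p = 0.0783). After quantile normalization 4 of 10 and 0 of 10 passed. The signs of all called differences stayed as they were.

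Differences between groups varied with the exon length of genes. Genes with more than 12000 bases of exons had a median log2 fold change of -0.26 in KI TAC against WT TAC hearts (569 genes), those of at most 1500 bases one of 0.18 (1010 genes), and in WT TAC against WT sham hearts these medians were 0.19 and -0.17. In KI TAC against KI sham hearts they were -0.10 and 0.03, beside -0.10 for all genes. Single sham libraries also stood apart. The median deviation of the longest genes was -0.20 in WT sham mouse 1 and -0.26 in KI sham mouse 2, and 0.02 to 0.16 in the other sham hearts. Among the members, Itpr1 (18319 bases), Plce1 (15998) and Itpr2 (14802) belong to the longest class. When the median of each of 20 length bins was removed from every library, an alternative chosen after the data had been seen, Itpr1 was at -0.49 with TAC in KI (adjusted p = 0.0113) and at -0.42 in KI TAC against WT TAC hearts (adjusted p = 0.0463), and passed in both. Plce1 was then at -0.41 (adjusted p = 0.0570) and Itpr2 at 0.36 (adjusted p = 0.109) in KI TAC against WT TAC hearts. Agtr1a (2786 bases), Adra1b (3382) and Gna11 (4097), the shortest members, fell with TAC in KI hearts with the length medians removed as well, at -0.67, -0.78 and -0.65.

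**Figure D4:**
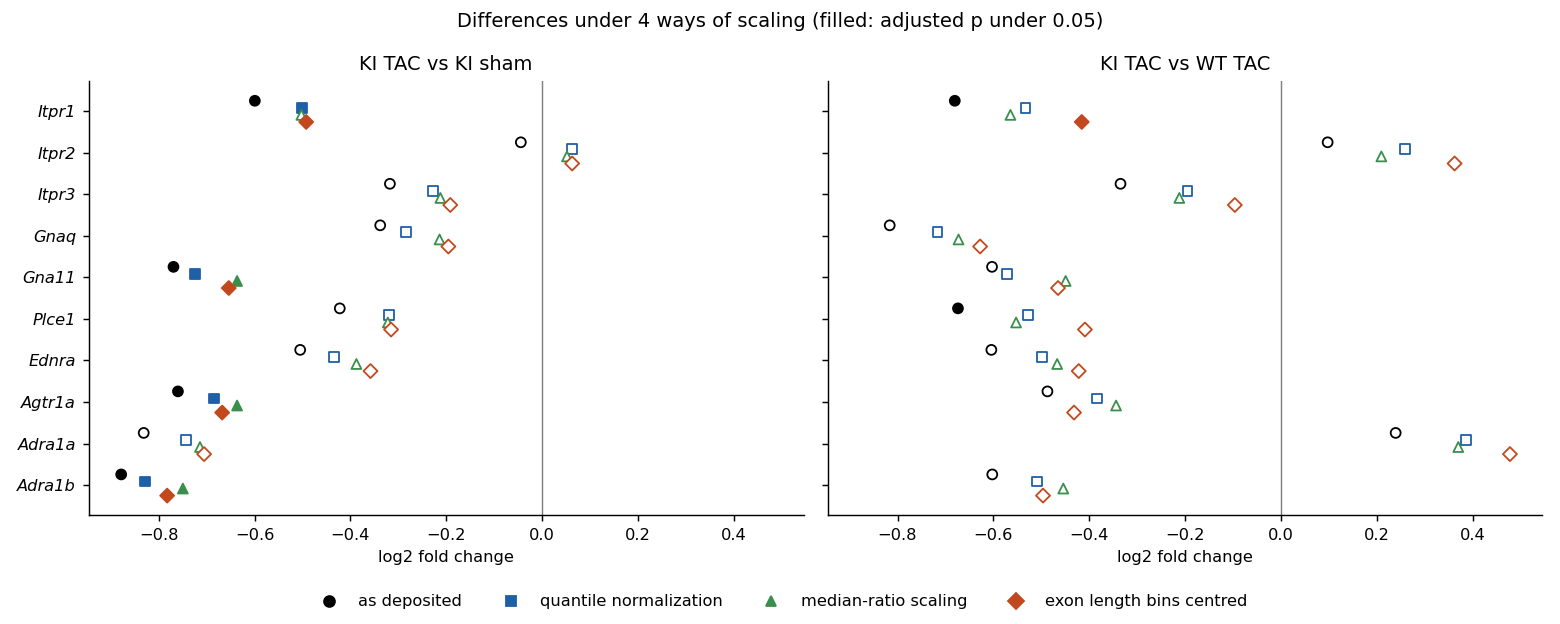
Log2 fold change of each gene with the deposited values, after quantile normalization, after median-ratio scaling, and with the median of exon length bins removed, filled where the adjusted p is under 0.05. In KI TAC against KI sham hearts Gna11, Agtr1a and Adra1b are filled under all 4, while in KI TAC against WT TAC hearts Itpr1 and Plce1 are filled with the deposited values and only Itpr1 with the length bins.

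Other genes of the pathway were taken from 8 lists by role, 116 genes in all, of which 97 were in the table and 83 were tested. With TAC, 8 were higher and 1 lower in WT hearts, where 6.96% of all genes were higher and 4.60% lower. In KI hearts 8 were higher and 8 lower, beside 8.57% and 14.7% of all genes. Between KI TAC and WT TAC hearts 2 were higher and 12 lower, beside 2.92% and 8.13%. The median log2 fold changes of the 83 were 0.12, -0.05 and -0.18, beside 0.04, -0.10 and -0.12 for all genes. None passed in KI sham against WT sham hearts.

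Among 15 other Gq-coupled receptors tested, 5 rose and 1 fell with TAC in WT hearts. The risers included F2rl1 and F2r, which encode protease-activated receptors (log2 fold changes 1.08 and 0.93), P2ry6, a receptor for UDP (1.04), and Ednrb, the endothelin receptor type B (0.90). F2rl1 passed the filter on low values through TAC hearts alone (1 RPKM in 5 TAC and 0 sham hearts), so that it had to be higher there. In KI hearts 3 rose and 3 fell. Ednrb (0.96) and F2rl1 (0.55) rose there as well, while Adra1d, the third α1-adrenergic receptor (-1.50), and P2ry1, a receptor for ADP (-1.04), were among those that fell. P2ry1 was also the 1 that fell in WT hearts (-0.80). Between the TAC groups 4 were lower in KI hearts and none higher: Adra1d (-1.92), the thromboxane receptor Tbxa2r (-0.97), P2ry6 (-0.75) and S1pr2, a receptor for sphingosine 1-phosphate (-0.67). Tbxa2r and S1pr2 did not pass after quantile normalization.

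Of 4 tested genes for ligands of the member receptors and their processing enzymes, 1 passed. Agt, which encodes angiotensinogen, the precursor of angiotensin II, rose by 1.79 on the log2 scale with TAC in KI hearts (SE 0.28, adjusted p = 0.000694), in the same hearts in which Agtr1a fell, and was higher by 1.30 in KI than in WT hearts after TAC (adjusted p = 0.0145). Of 7 other G-protein subunit genes, Gna15, whose product Gα15 is of the Gq class and is known from blood cells, rose with TAC in WT hearts (0.59) and stood lower in KI hearts after TAC (-0.52 against WT TAC), the latter not under the alternative scalings.

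Of 11 regulators of Gq signal strength, Grk5, a kinase that phosphorylates active receptors, rose with TAC in WT hearts (1.16, adjusted p = 0.00263) and stood lower in KI hearts after TAC (-1.28 against WT TAC, adjusted p = 0.00461). Arrb1, the gene of β-arrestin 1, fell with TAC in KI hearts (-0.57, not called after median-ratio scaling or without the filter on low values) and was lower than in WT TAC hearts (-0.87), whereas Rgs16, which speeds the shut-off of Gα subunits, rose in KI hearts (0.89). Rgs16 too passed the filter through TAC hearts alone, 4 of them. Of 9 other phospholipase C isoforms, Plcb3 alone passed, with -0.49 with TAC in KI hearts and -0.52 between the TAC groups, the latter not under either alternative scaling. Of 8 enzymes that convert IP3, Itpkc, a kinase that turns IP3 into inositol tetrakisphosphate, rose with TAC in KI hearts (1.08, adjusted p = 0.0252), but lost its call whichever of the 3 KI sham mice was left out, and without KI TAC mouse 5 (0.62).

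Of 13 diacylglycerol kinases and protein kinases C and D, which act on the other product of phospholipase C, Prkcd rose with TAC in WT hearts (0.67), a call that was lost whichever of the 6 mice was left out. In KI hearts 1 rose and 3 fell, Dgkd with 0.69 and the diacylglycerol kinases Dgkz and Dgke with -1.06 and -0.63 and the protein kinase gene Prkce with -0.60, which was not called after median-ratio scaling. Between the TAC groups Dgkz was lower in KI hearts (-0.78). Of 16 partners and modulators of IP3 receptors, none passed with TAC in WT hearts, and 1, Bcl2l1 itself, rose in KI hearts (1.26, adjusted p = 0.0354). This call was lost without KI sham mouse 1 (0.83, adjusted p = 0.143), KI sham mouse 3, or KI TAC mouse 5 or 6. Between KI TAC and WT TAC hearts Bcl2l1 was higher (1.64, lost when mouse 7 or 10 of the WT or mouse 5 or 6 of the KI group was left out), and Itpripl2 (-1.32) and Bcl2 (-0.68) were among those lower. Bcl2 did not pass under either alternative scaling.

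Of the 39 calls made in these lists, 11 held when each mouse of the comparison was left out in turn. They were Agt, Adra1d, P2ry1, Dgkz and Dgke with TAC in KI hearts, Grk5, F2r, P2ry6 and F2rl1 (past the filter through TAC hearts alone) with TAC in WT hearts, and Adra1d and Grk5 between the TAC groups. The other 28 were lost without at least 1 mouse. The share of all called genes that held in this way was not counted, so these counts have no background.

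**Figure D5:**
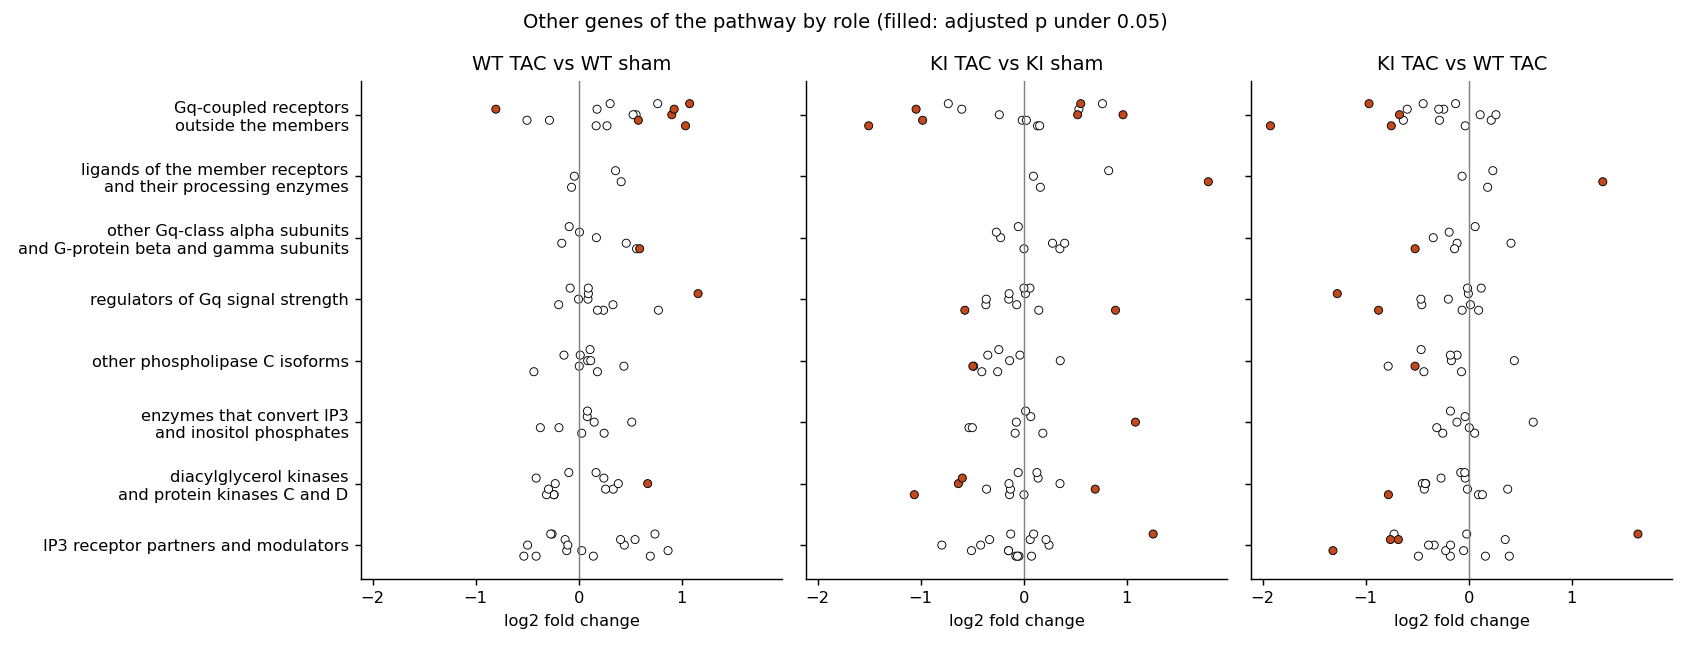
Log2 fold change of 83 other genes of the pathway in 3 comparisons, with 1 point for each gene, grouped by role and filled where the adjusted p is under 0.05. In KI TAC against WT TAC hearts 12 of the 14 filled points lie below 0, Agt and Bcl2l1 being the others.

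The genes whose log2 levels followed a member most closely over the 12 mice were found among all tested genes, as a description without a test; the hearts fall into the same 4 groups for every gene. Itpr1 was most like Atrn (Pearson's r = 0.965) and Prpf8 (0.962), Plce1 like Birc6 (0.966) and Usp24 (0.960), and Gnaq like Trim33 (0.963) and Tent4b (0.961). Gna11 was most like Fem1a (0.971) and Wbp1l (0.960), Itpr3 like Abca3 (0.944) and Zdhhc3 (0.938), and Adra1b like Vegfa (0.941) and Tmc8 (0.931). Agtr1a was most like Dgke (0.951), itself one of the diacylglycerol kinases that fell in KI hearts, and Rnf130 (0.946). Adra1a followed Intu (0.932) and Mylk4 (0.929), Ednra followed Nfia (0.902) and Osr1 (0.889), and Itpr2, with the weakest match, followed Sptbn1 (0.866) and Fnip1 (0.853).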

How the data were processed

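RNA of 12 whole hearts was sequenced, 3 for each combination of genotype and surgery in the labels. Per the methods and the submitters' processing notes, the authors trimmed the reads (Trimmomatic 0.39), mapped them to GRCm38 (HISAT2 2.2.1) and counted them on genes (HTSeq 0.6.1). Neither the labels nor the header name the unit of the deposited table, which was taken as RPKM from its values; the step from counts to RPKM and the filter behind the listed genes are not given in the sources used here. Multiplied by the exon lengths of GENCODE M21, the values sum to nearly the same total in every mouse, so no further scaling is seen in them, and depth was recovered from the steps of low values.

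Genes had to reach 1 RPKM in 3 or more mice, and log2(RPKM + 1) was fitted with limma 3.58.1 (R 4.3.3; lmFit, eBayes with trend) to 4 groups and all 12 mice. The adjusted p is that of Benjamini and Hochberg over all genes tested, with a threshold of 0.05. The pseudocount of 1 makes fold changes of low genes smaller than those of their RPKM. P-values of the limma fit compare differences of group means with the spread between mice, estimated over all 12 and moderated across genes. Alternatives were a pseudocount of 0.1, no filter, quantile normalization, median-ratio scaling, a fit of the groups compared alone, a replicate block for the sham groups, and leaving out each mouse. Removing the median of exon length bins was added after the data had been seen.

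The 10 members and all lists were chosen with earlier results of these data known. All members are described; of the other pathway lists, at most 4 called genes per list and comparison are named, those with the largest log2 fold change, and for each member the 2 genes most correlated with it. Some genes that this rule names are not reported here. Marker lists of lymphocytes, atrial myocytes, adipocytes, lung and skeletal muscle were looked up, with 0 markers matched, and give no values. Python 3.11.15 and matplotlib 3.10.9 were used for tables and plots.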

Additional observations from a re-analysis of the deposited data

Results flagged for a closer look

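Gnaq and Plce1 were flagged for a pattern picked from these values. All WT TAC mice lay above, and all KI TAC mice below, the mean of their own sham group. The share of all genes with this pattern was not counted, and sham and TAC mice of each genotype overlapped for both genes. For Gnaq the WT TAC mice lay 0.06 to 0.77 above, and the KI TAC mice 0.16 to 0.65 below, the mean of their own sham group on the log2 scale. The KI side rested on KI sham mouse 1 (16.1 RPKM). KI TAC mouse 5 (9.92 RPKM) stood above KI sham mice 2 and 3 (8.83 and 9.79 RPKM). Without KI sham mouse 1 the log2 fold change in KI hearts was -0.09, in place of -0.34. The interaction of genotype and surgery for Gnaq was -0.817 (SE 0.35, adjusted p = 0.309, limma). For Plce1 the WT TAC mice lay 0.10 to 0.61 above and the KI TAC mice 0.33 to 0.49 below, with an interaction of -0.698 (SE 0.28, adjusted p = 0.279). Neither interaction passed the threshold, and the causes were not tested.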

How the results depend on the processing

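Under the alternatives other than leaving out a mouse, 276 values of single members kept their direction and their side of the threshold, 10 lost and 3 gained a call, and 11 turned their sign, all of them small and without a call. The sign turned for Itpr2 in KI TAC against KI sham hearts, with 0.062 after quantile normalization, 0.052 after median-ratio scaling and 0.063 with the medians of length bins removed. With these medians removed, Itpr1 in WT TAC against WT sham hearts was at -0.11 and the interaction of Itpr3 at 0.065. In KI sham against WT sham hearts Itpr2 turned to -0.0092 after quantile normalization and -0.0033 with length medians removed, and Gnaq to -0.0014 with a pseudocount of 0.1, -0.0055 after quantile normalization, -0.0084 after median-ratio scaling and -0.0033 with length medians removed.

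The number of members called in WT TAC against WT sham hearts was 1 with length medians removed and 1 in a fit of these groups alone, Adra1a each time. In KI TAC against WT TAC hearts it was 3 with a pseudocount of 0.1, where Gnaq joined Itpr1 and Plce1, 1 without the filter and 1 with length medians removed, Itpr1 each time, and 0 after quantile normalization, 0 after median-ratio scaling and 0 in a fit of these groups alone, in which 216 genes were called in place of 1242. For the sham groups a fit of these groups alone called 5 genes. Fitted with the replicate block, they gave 0 genes in place of 2, and no member either way. Deviations of sham mice of the same number correlated at -0.22, -0.30 and 0.44, and those of different numbers at -0.35 to 0.43. With 3 mice a group this cannot decide whether the numbers pair the mice, and the TAC groups share only number 7. The causes of these changes were not tested.

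Leaving out 1 mouse gave 596 to 1525 genes and 0 to 1 members called in WT TAC against WT sham, 1453 to 2741 genes and 1 to 5 members in KI TAC against KI sham, 162 to 1822 genes and 0 to 3 members in KI TAC against WT TAC hearts, and 0 to 240 genes in the interaction. The fewest were called without WT TAC mouse 7 in the WT and TAC comparisons (596 and 162) and without KI sham mouse 3 in KI hearts (1453). The interaction passed for 240 genes when WT TAC mouse 9 was left out, for 182 when KI TAC mouse 7 was, for 8 when WT TAC mouse 10 was, and for none of the 10 members in any of these fits. Among the members' values, 301 kept direction and side, 21 lost and 8 gained a call, and 30 turned sign, none of those with a call. The latter ranged, for WT TAC against WT sham hearts, from -0.032 to 0.14 (Itpr1), -0.29 to 0.013 (Itpr2), -0.41 to 0.0015 (Ednra) and -0.051 to 0.23 (Adra1b). For Itpr2 they ranged from -0.16 to 0.093 in KI TAC against KI sham, from -0.0051 to 0.22 in KI TAC against WT TAC hearts, and from -0.057 to 0.24 in the interaction, which for Adra1a ran from -0.12 to 0.46. Between the sham groups they ran from -0.21 to 0.20 (Itpr1), -0.146 to 0.15 (Itpr2), -0.24 to 0.16 (Gnaq), -0.12 to 0.24 (Plce1), -0.15 to 0.013 (Agtr1a) and -0.147 to 0.36 (Adra1a).

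With 3 mice a group, differences such as the -0.82 of Gnaq between the TAC groups can lie beyond an unadjusted p of 0.05 and still miss the threshold over 11240 genes. Each heart held at least 506 reads of each member.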
